A study of Mus musculus with 6 samples.

Results

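The genes described here are 10 genes of milk protein synthesis and alveolar secretion, chosen by name from the 52636 Ensembl genes of the count table. They are the casein genes Csn1s1, Csn2 and Csn3, the whey protein genes Wap and Lalba, the secretory genes Wfdc18, Mfge8, Lcn2 and Trf, and the lipid droplet gene Plin2. Their counts were compared between 2 mouse mammary tumour cell lines, J110 and SSM3, with 3 biological replicates of each. J110 was derived from mice that express an AIB1 cDNA under the MMTV promoter, and SSM3 from mammary tumours of 129SvEv mice. RNA was sequenced from the 3′ ends of polyadenylated transcripts with the QuantSeq kit. Both culture media contained serum, insulin and hydrocortisone, prolactin is listed for neither, and holo-transferrin is listed as an additive of the SSM3 medium only. Serum and CO2 were also higher for SSM3, so the effects of line and culture cannot be told apart. Each line stands for a single model, and a difference in RNA per cell cannot be told apart from a difference in the share of cells that express a gene.

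Milk is made by the alveolar luminal cells of the mammary gland. In late pregnancy and lactation, prolactin acts through its receptor, the kinase JAK2 and the transcription factor STAT5, together with insulin and glucocorticoid, to raise the transcription of casein and whey genes. Caseins carry calcium and phosphate in micelles, whey proteins stay soluble, and milk fat leaves the cell as droplets wrapped in plasma membrane. Several secretory genes of this group are also transcribed outside lactation, in other tissues or in inflammation.

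Total counts per library ranged from 5209740 to 5416305 in J110 and from 4200785 to 4792941 in SSM3. Levels are given as CPM, the usual count relative to library depth, with library totals scaled by TMM factors. The detection floor of a line was set at 3 counts, so a gene that never exceeded 3 counts in that line was at the floor, and 3 counts corresponded to between 0.578 and 0.668 CPM. The reads carry no described molecular identifiers, so limits and intervals from counts cover counting error only. Ncoa3, the mouse gene of AIB1, had 102 to 110 counts in J110 and 181 to 199 in SSM3. A 3′ tag need not report a transgene cDNA, so this gene does not check the labels, and J110 and SSM3 stand below for libraries with those labels. Esr1, the oestrogen receptor gene, had 31, 15 and 10 counts in J110 against 222, 175 and 193 in SSM3, and Cdh1, the gene of E-cadherin, had 21, 11 and 28 against 6019, 6369 and 7179. Genes abundant in one line carried traces of counts in the opposite line, and these traces were largest in J110 replicate 3 and SSM3 replicate 2, at 0.250% and 0.363% of the level in the opposite line, against 0.0299% to 0.0839% elsewhere. These genes were chosen for low counts in the opposite line, so the shares describe the libraries and bound nothing for other genes. Reads on a ribosomal RNA locus made up between 15.1% and 17.2% of counts in J110 and between 0.779% and 1.27% in SSM3, and the members called were the same in number without its 3 genes.

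Csn1s1, Wap and Lalba were not detected in either line and Csn2 had a few reads in SSM3, while Csn3 was well above the floor in J110 and Mfge8 and Plin2 had at least 775 counts in every library. Of the 10 genes, 3 (Csn1s1, Wap and Lalba) had no count in any library, and they were the members at the floor in both lines. Of all genes counted by the authors, 70.1% were at the floor in both lines, and of protein coding genes 41.7%. J110 was at the floor for Csn2 and Lcn2 as well. Only 4 members, Csn3, Wfdc18, Mfge8 and Plin2, passed the filter on low counts and were tested. Each of the 4 passed edgeR's quasi-likelihood test at the adjusted p threshold of 0.05, as did 77.9% of the 12284 genes tested, and had libraries that did not overlap between the lines, as did 79.6%. Wfdc18 and Mfge8 were higher in SSM3, a direction called for 38.6% of genes tested, and Csn3 and Plin2 were lower in SSM3, called for 39.2%.

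**Figure D1:**
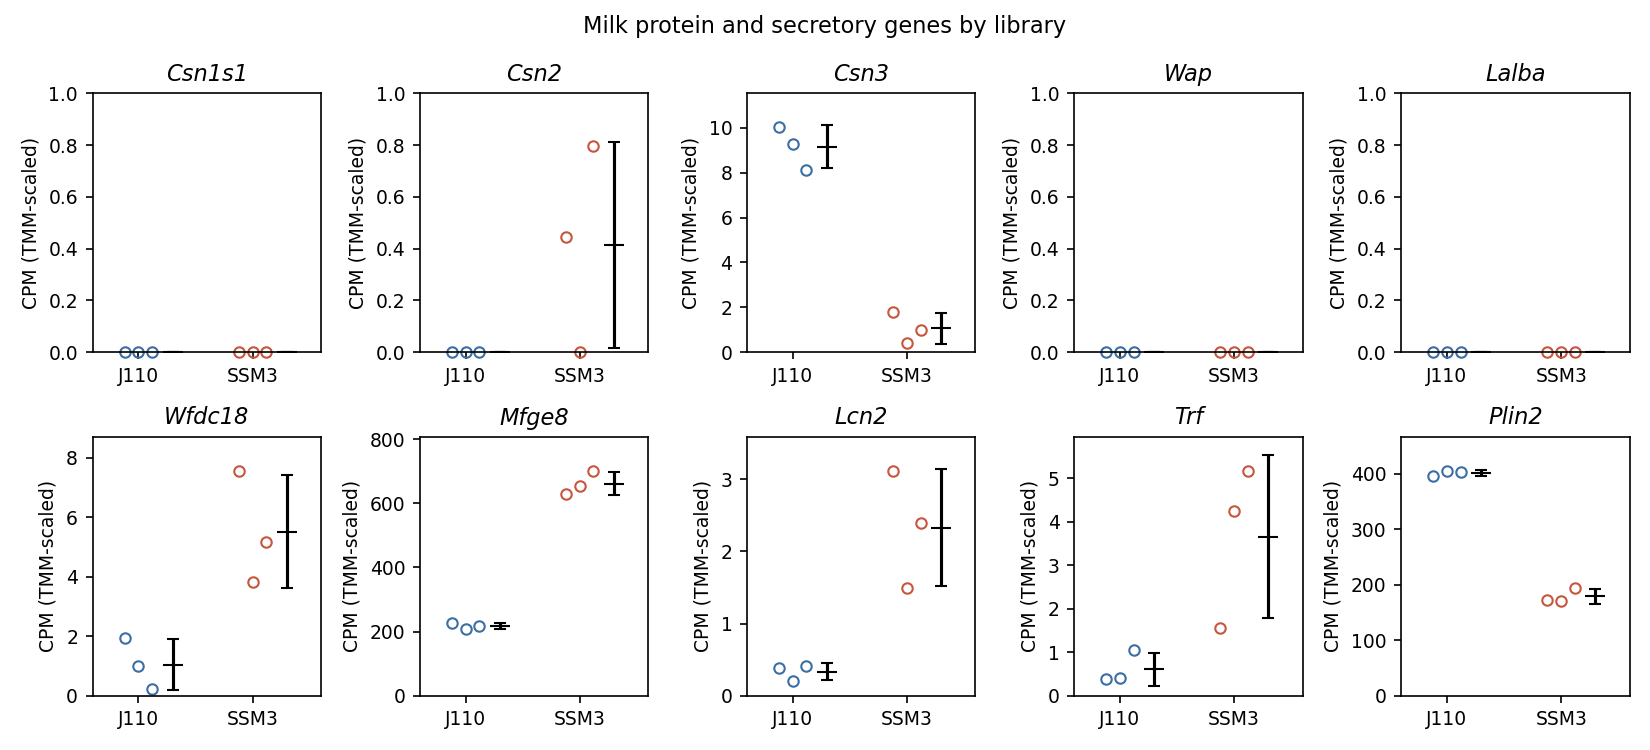
CPM of the 10 genes (vertical axes, TMM-scaled, each starting at 0) in the 3 libraries of J110 and the 3 of SSM3. Circles are libraries and the bars beside them show the mean and SD. Csn1s1, Wap and Lalba sit at 0 in all 6 libraries, Mfge8 rises from a mean of 217 to 661 CPM and Plin2 falls from 401 to 179 CPM.

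Of the caseins, Csn3 passed the filter and was lower in SSM3. Csn3 encodes kappa-casein, which coats and stabilises the casein micelle, and lies on the forward strand of chromosome 5 of mm10 from 87925579 to 87932665. It had 52, 47 and 39 counts in J110 against 8, 2 and 5 counts in SSM3. The libraries of the lines did not overlap, and SSM3 replicate 2 was the lowest. The mean level was 9.15 ± 0.951 CPM for J110 against 1.07 ± 0.681 CPM for SSM3 (SD, n = 3 each). Csn3 was 8.50-fold lower in SSM3, or -3.09 as a log2 fold change (standard error, SE, 0.35, edgeR adjusted p = 4.97e-07).

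Csn2 encodes beta-casein, a major calcium-sensitive casein, on the reverse strand of chromosome 5 from 87692624 to 87699630. It had no count in J110 and 2, 0 and 4 counts in SSM3. The lines overlapped at 0 (exact two-sided permutation test of CPM, p = 0.4), and Csn2 did not pass the filter. When every gene with at least 1 count was tested, Csn2 had an adjusted p of 0.0439 from edgeR, a call that rests on 6 reads. Csn1s1, the gene of alpha-S1-casein on the forward strand from 87666208 to 87682578, had no count in either line.

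Csn1s1, Csn2 and Csn3 belong to a cluster that spans 266458 bases from the start of Csn1s1 to the end of Csn3 and holds 7 protein coding genes. Its calcium-sensitive genes Csn1s2a and Csn1s2b, which encode alpha-S2-type caseins, had 8, 4 and 5 counts and 2, 3 and 3 counts in SSM3, and no count in J110. Csn1s2a was thus at least 2.02-fold higher in SSM3, against 3 counts per J110 library, while Csn1s2b was at or below 3 counts everywhere. Summed over Csn1s1, Csn2, Csn1s2a and Csn1s2b, SSM3 had 12, 7 and 12 counts and J110 had 0, 0 and 0. The sums did not overlap and were opposite in direction to Csn3. Prr27 and Odam, which lie between Csn1s2b and Csn3, had no count in any library. The exons of Csn1s1, Csn2 and Csn3 are shared with no other gene, and 3 of the 4191 windows of 75 bases in Csn3 transcripts also occur in transcripts of another gene, Pmf1.

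**Figure D2:**
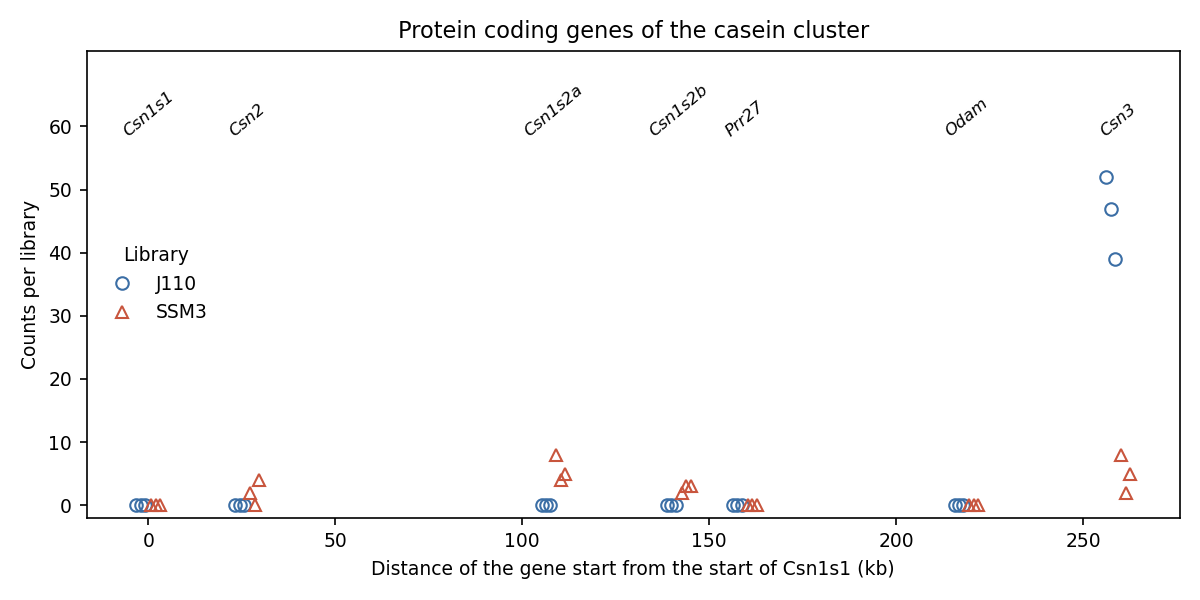
Counts per library (vertical axis) of the 7 protein coding genes of the casein cluster, placed by the distance of their start from that of Csn1s1 in kb (horizontal axis). Circles are J110 libraries and triangles SSM3 libraries, moved sideways to keep them apart. J110 has counts on Csn3 only, from 39 to 52, and SSM3 has from 0 to 8 counts on Csn2, Csn1s2a, Csn1s2b and Csn3.

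STAT5 recognises the palindrome TTCNNNGAA, which was searched in the 250 bases before the start of each gene in the RefSeq promoter windows of GRCm38.p6. A window was present for 8 of the 10 genes, all but Csn3 and Trf, and 2 of these held the motif. Of all 32851 promoter windows, 7.02% held it. The matches are shown because they lie in caseins at or near the floor, with the motif in capitals, from 5′ to 3′ on the gene's own strand. The Csn1s1 stretch is chr5:87666092-87666132, forward strand, and the Csn2 stretch is chr5:87699494-87699534, reverse strand.
Csn1s1: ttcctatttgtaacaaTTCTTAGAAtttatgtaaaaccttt
Csn2: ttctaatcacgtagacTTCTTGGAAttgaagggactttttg
The motif lies from 100 to 92 bases before the start in Csn1s1 and from 93 to 85 bases before it in Csn2. These distances count from the RefSeq start, which for Csn2 lies inside the GENCODE interval given above, so the Csn2 stretch is within the gene as GENCODE draws it. Csn1s1 had no count in either line, and Csn2 had counts in 2 of the 3 SSM3 libraries. A match is a string of letters, and binding was not measured.

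Wap (chromosome 11, 6635482 to 6638637, reverse strand) encodes whey acidic protein, the major whey protein of mouse milk. Lalba (chromosome 15, 98480400 to 98482721, reverse strand) encodes alpha-lactalbumin, the subunit that turns beta-1,4-galactosyltransferase into lactose synthase. Both had 0 counts in all 6 libraries, so for each single library a level up to about the floor remains possible. Wfdc18 (chromosome 11, 83709015 to 83711348, forward strand) encodes a small secreted protein with a whey acidic protein domain and is known from mammary tissue. It had 10, 5 and 1 counts in J110 against 34, 18 and 26 in SSM3. The lines did not overlap, although the J110 libraries differed widely among themselves. The means were 1.04 ± 0.861 CPM (SD, n = 3) and 5.52 ± 1.90 CPM (SD, n = 3). Wfdc18 was 5.07-fold higher in SSM3, a log2 fold change of 2.34 (SE 0.45, edgeR adjusted p = 0.000174). Without J110 replicate 1 the log2 fold change of Wfdc18 was 3.11, and without J110 replicate 3 it was 1.88.

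Of 11 other genes of the whey acidic protein family, 8 were at the floor in both lines and 2 were tested, both higher in SSM3. The remaining gene, Wfdc1, did not pass the filter and had 2, 5 and 5 counts in J110 and none in SSM3, at least 1.27-fold lower in SSM3. Wfdc2, a secreted protein of epithelia, had 2909, 2608 and 2634 counts in J110 against 5922, 6540 and 7381 in SSM3 (log2 fold change 1.36, SE 0.07, edgeR adjusted p = 2.34e-11). Slpi, the secretory leukocyte protease inhibitor, had 18, 19 and 15 counts in J110 against 29, 25 and 28 in SSM3. Its log2 fold change was 0.73 (SE 0.26, edgeR adjusted p = 0.0160), while its adjusted p from DESeq2 was 0.0833. Without SSM3 replicate 1 the adjusted p of Slpi was 0.0557 from edgeR, and without J110 replicate 3 and SSM3 replicate 2 it was 0.0536. Wfdc17, of the same family as Wfdc18, had no count in any library, and none of the 1294 windows of 75 bases in Wfdc18 transcripts occurs in transcripts of another gene.

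Mfge8 encodes lactadherin, a milk fat globule protein that binds phosphatidylserine and bridges it to integrins. The gene lies on the reverse strand of chromosome 7 from 79133768 to 79149060. It had 1172, 1047 and 1038 counts in J110 against 2826, 3076 and 3524 in SSM3. All 3 SSM3 libraries lay far above the J110 libraries, and replicates stayed close to each other. The mean of Mfge8 was 217 ± 9.43 CPM across J110 libraries against 661 ± 36.6 CPM across SSM3 libraries (SD, n = 3 each), which is 3.05-fold higher in SSM3. The log2 fold change was 1.61 (SE 0.07, edgeR adjusted p = 3.66e-12).

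The integrin chains that bind lactadherin went in different directions. Itgb5 was higher in SSM3, with a mean of 31.7 ± 1.05 CPM in J110 against 103 ± 5.69 in SSM3 (SD, n = 3 each). Itgb3 was lower in SSM3, with 20, 43 and 28 counts in J110 against 9, 5 and 7 in SSM3. Itgav, the alpha chain that pairs with both, was lower in SSM3 by a log2 fold change of -0.39 (SE 0.10, edgeR adjusted p = 0.00268). With library size only, without TMM, the Itgav value was -0.22 (adjusted p = 0.0591), and without J110 replicate 3 and SSM3 replicate 2 the adjusted p was 0.0551, both from edgeR.

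Plin2 encodes perilipin 2, also called adipophilin, which coats cytoplasmic lipid droplets and is carried into milk on the fat globule. The gene lies on the reverse strand of chromosome 4 from 86648386 to 86670060. It had 2051, 2048 and 1927 counts in J110 against 775, 802 and 978 in SSM3. The lines did not overlap, and SSM3 replicate 3 was the highest of its line. The mean of Plin2 was 401 ± 4.96 CPM across J110 libraries against 179 ± 13.4 CPM across SSM3 libraries (SD, n = 3 each). Of the 3496 windows of 75 bases in its transcripts, 29 also occur in transcripts of Gm12551. Plin2 was 2.24-fold lower in SSM3, a log2 fold change of -1.16 (SE 0.07, edgeR adjusted p = 3.76e-10).

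**Figure D3:**
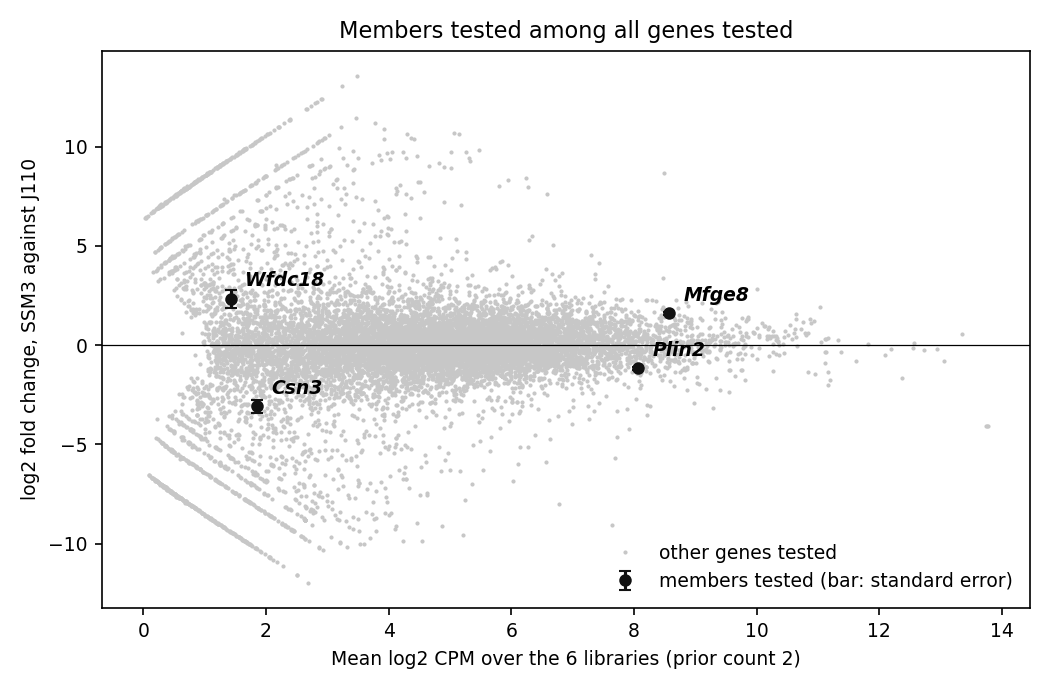
Log2 fold change, SSM3 against J110 (vertical axis), against the mean log2 CPM over the 6 libraries (horizontal axis) for the 12284 genes tested, in grey. The 4 members tested are black with standard errors. Mfge8 at 1.61 and Wfdc18 at 2.34 lie above 0, and Plin2 at -1.16 and Csn3 at -3.09 below it. Grey streaks at the left are genes with no or few counts in 1 line, and fitted values of genes with none depend on the prior count.

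The other perilipins and lipid droplet proteins were described after their values were seen. Plin3 had a mean of 129 ± 5.17 CPM in J110 against 128 ± 6.03 in SSM3 (SD, n = 3 each), with a log2 fold change of -0.02 (SE 0.08, edgeR adjusted p = 0.859). Plin4 had a log2 fold change of 0.17 (SE 0.19, edgeR adjusted p = 0.411). Plin1 and Plin5 had no count in any library. Abhd5, the coactivator of triglyceride lipase that perilipins regulate, was lower in SSM3 by a log2 fold change of -1.07 (SE 0.11). The lipase gene Pnpla2 was higher by 1.63 (SE 0.10, edgeR adjusted p = 1.65e-10).

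Of 21 other genes of the milk fat globule and milk fat synthesis, 12 were tested, of which 7 were higher and 2 lower in SSM3 and 3 did not pass. With library size only, 8 were higher and 2 lower. The median log2 fold change of the 12 genes was 0.75, beside -0.01 over all genes tested. Xdh and Btn1a1 encode xanthine dehydrogenase and butyrophilin, which join Plin2 on the milk fat globule. Xdh had 49, 62 and 61 counts in J110 against none in SSM3, so it was at least 18.1-fold lower in SSM3, against 3 counts per SSM3 library. Btn1a1 was at the floor in both lines, with 2 counts in all. Lpl, the lipoprotein lipase, had no count in J110 and 59, 60 and 72 counts in SSM3, at least 22.4-fold higher. Vldlr, a lipoprotein receptor, had 22, 32 and 19 counts in J110 against 0, 1 and 0 in SSM3. The single SSM3 count was in replicate 2.

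Enzymes of fatty acid and triglyceride synthesis were among the genes of that list called higher in SSM3. Fasn, the fatty acid synthase, averaged 279 ± 35.6 CPM in J110 against 582 ± 31.4 in SSM3 (SD, n = 3 each). Scd1, a fatty acid desaturase, was higher by 1.43 on the log2 scale (SE 0.07, edgeR adjusted p = 2.94e-11). Acly, which makes cytosolic acetyl-CoA, had a smaller log2 fold change of 0.44 (SE 0.08, edgeR adjusted p = 7.70e-05). Dgat2, which catalyses the last step of triglyceride synthesis, had 6, 5 and 8 counts in J110 against 137, 169 and 188 in SSM3. Dgat1, of the same step, and Gpat4, of an earlier step, had log2 fold changes of 1.96 (SE 0.14) and 1.57 (SE 0.09). Lpin1 did not pass, at 0.13 on the log2 scale (SE 0.11, edgeR adjusted p = 0.262).

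Lcn2 and Trf encode secreted iron-handling proteins, and both were scarce. Lcn2 (chromosome 2, 32384633 to 32388252, reverse strand) encodes lipocalin 2, which binds bacterial siderophores. It had 2, 1 and 2 counts in J110 against 14, 7 and 12 in SSM3. J110 was at the floor and the lines did not overlap. The ratio, SSM3 over J110, was 6.98 with an exact 95% counting interval from 2.71 to 22.9. Trf (chromosome 9, 103204001 to 103230444, reverse strand) encodes transferrin, the iron carrier of plasma that is also secreted into milk. It had 2, 2 and 5 counts in J110 against 7, 20 and 26 in SSM3. The lines did not overlap, and SSM3 replicate 1 lay closest to J110. The ratio was 6.22 with an exact interval from 3.04 to 14.4.

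Neither Lcn2 nor Trf passed the filter, and the exact two-sided permutation test of CPM gave p = 0.1 for each, the smallest p that 3 libraries against 3 allow. When every gene with at least 1 count was tested, Lcn2 had a log2 fold change of 2.73 (SE 0.64, edgeR adjusted p = 5.17e-05) and Trf of 2.60 (SE 0.49, edgeR adjusted p = 3.15e-07). In that test 49.2% of 22592 genes were called, 5434 (24.1%) higher in SSM3 and 5689 lower. Of the 7 members with counts, 5 were higher and 2 lower. Csn2, among the 5, had reads in SSM3 only, so its direction was fixed by the reads that let it enter. The libraries of the lines did not overlap for 6 of these 7 members, all but Csn2, and for 53.2% of the 22592 genes. Trf shares 2108 of its 3320 exon bases with Gm20425 on the same strand, and 56.0% of the 75-base windows in its transcripts also occur in transcripts of other genes, so its counts are uncertain. Gm20425 itself had 2, 9 and 2 counts in J110 against 6, 13 and 11 in SSM3.

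Of the receptor genes of these carriers, Tfrc and Slc22a17 were higher in SSM3. Tfrc, the transferrin receptor, averaged 139 ± 9.65 CPM in J110 against 443 ± 13.4 in SSM3 (SD, n = 3 each), so its log2 fold change was 1.67 (SE 0.07, edgeR adjusted p = 3.90e-12). Slc22a17, a lipocalin 2 receptor, had 4, 1 and 1 counts in J110 against 20, 39 and 33 in SSM3. Its log2 fold change was 3.93 (SE 0.47, edgeR adjusted p = 9.80e-07), and 4.81 without J110 replicate 1. Lrp2, another receptor for lipocalin 2, was at the floor in both lines. Of the 8 receptors and partners of the members, 7 were tested, with 4 higher and 3 lower in SSM3, or 4 and 2 with library size only.

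Of 15 other milk protein genes, 8 were at the floor in both lines and 4 were tested, with 3 higher and 1 lower in SSM3. The number lower was 2 without J110 replicate 3 or without any single SSM3 replicate, and the number higher was 2 without SSM3 replicate 1, with DESeq2 and in a test for changes above 2-fold. Testing every gene with at least 1 count gave 6 higher and 2 lower of 11, and at least 10 counts in every library gave 1 and 1. Pthlh, the gene of a calcium-regulating hormone found in milk, did not pass the filter and had 19, 23 and 9 counts in J110 against 7, 1 and 2 in SSM3, without overlap. Glycam1, Lpo, Lao1 and Cel, which encode a milk mucin, lactoperoxidase, an amino acid oxidase and bile salt-stimulated lipase, had no count in any library. Ltf, the gene of lactoferrin, had 1 count in all. Spp1 encodes osteopontin, a milk phosphoprotein that many tumour and matrix cells also secrete. It averaged 445 ± 7.54 CPM in J110 against 3.43 ± 0.470 in SSM3 (SD, n = 3 each), so its log2 fold change was -7.00 (SE 0.12, edgeR adjusted p = 6.90e-17). Muc1, a mucin of the apical membrane and the milk fat globule, had 3, 1 and 1 counts in J110 against 28, 26 and 25 in SSM3. The ratio of Muc1, SSM3 over J110, was 16.7 with an exact 95% counting interval from 6.86 to 52.8. Its log2 fold change was 3.96, and 4.597 without J110 replicate 1. Folr1, the gene of a folate-binding protein found in milk, had no count in J110 and 20, 26 and 19 in SSM3, at least 7.66-fold higher.

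Lactose is made in the Golgi from glucose and UDP-galactose, and lactose synthase needs both alpha-lactalbumin and the enzyme encoded by B4galt1. Although Lalba had no count, B4galt1 averaged 97.2 ± 1.90 CPM in J110 against 142 ± 0.608 in SSM3 (SD, n = 3 each). Its log2 fold change was 0.54 (SE 0.08, edgeR adjusted p = 6.69e-06). Of the 14 genes of lactose synthesis and transport, 11 were tested, of which 4 were higher and 4 lower in SSM3, or 5 and 2 with library size only. Slc12a2, a sodium, potassium and chloride cotransporter, had 545, 561 and 572 counts in J110 against 2379, 2587 and 2728 in SSM3, the largest change of this list. Hk1, a hexokinase, and Aqp5, a water channel, were also higher in SSM3, with log2 fold changes of 0.55 (SE 0.07) and 0.99 (SE 0.14). Slc2a1, which encodes the glucose transporter GLUT1, was lower in SSM3 by a log2 fold change of -1.04 (SE 0.09) and Hk2, another hexokinase, by -1.33 (SE 0.10). Slc34a2, Atp2b2 and Slc30a2, whose transporters carry phosphate, calcium and zinc in secretory cells, had no count in any library.

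Among 11 regulators of milk genes, 10 were tested, with 6 higher and 3 lower in SSM3. Prlr, the prolactin receptor, had 0, 1 and 5 counts in J110 against 2489, 2910 and 3036 in SSM3 (adjusted p = 3.08e-16 from edgeR). Of its 6 counts in J110, 5 fell in replicate 3, and without that library the log2 fold change moved from 10.44 to 12.22. Jak2, the kinase bound to that receptor, averaged 32.0 ± 1.01 CPM in J110 against 394 ± 22.9 in SSM3 (SD, n = 3 each). Stat5a and Stat5b, the genes of STAT5, had log2 fold changes of 4.42 (SE 0.14) and 1.86 (SE 0.12). Cish, a feedback inhibitor that STAT5 induces, had 10, 4 and 8 counts in J110 against 230, 203 and 239 in SSM3, and Socs2, of the same family, averaged 183 ± 2.98 CPM in J110 against 683 ± 45.3 in SSM3 (SD, n = 3 each). Nfib and Id2, transcriptional regulators that take part in mammary development, were lower in SSM3. Nfib averaged 295 ± 24.8 CPM in J110 against 1.67 ± 0.328 in SSM3, and Id2 157 ± 18.9 against 22.2 ± 0.829 (SD, n = 3 each). Nr3c1, the glucocorticoid receptor gene, had a log2 fold change of -1.98 (SE 0.13, edgeR adjusted p = 6.09e-10). Elf5, a transcription factor of the alveolar lineage, was at the floor in both lines, with 1, 2 and 1 counts in J110 against none in SSM3. Prlr, Jak2 and Cish were thus higher in SSM3, as were Wfdc18 and Mfge8, while Csn3 and Plin2 were lower there.

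**Figure D4:**
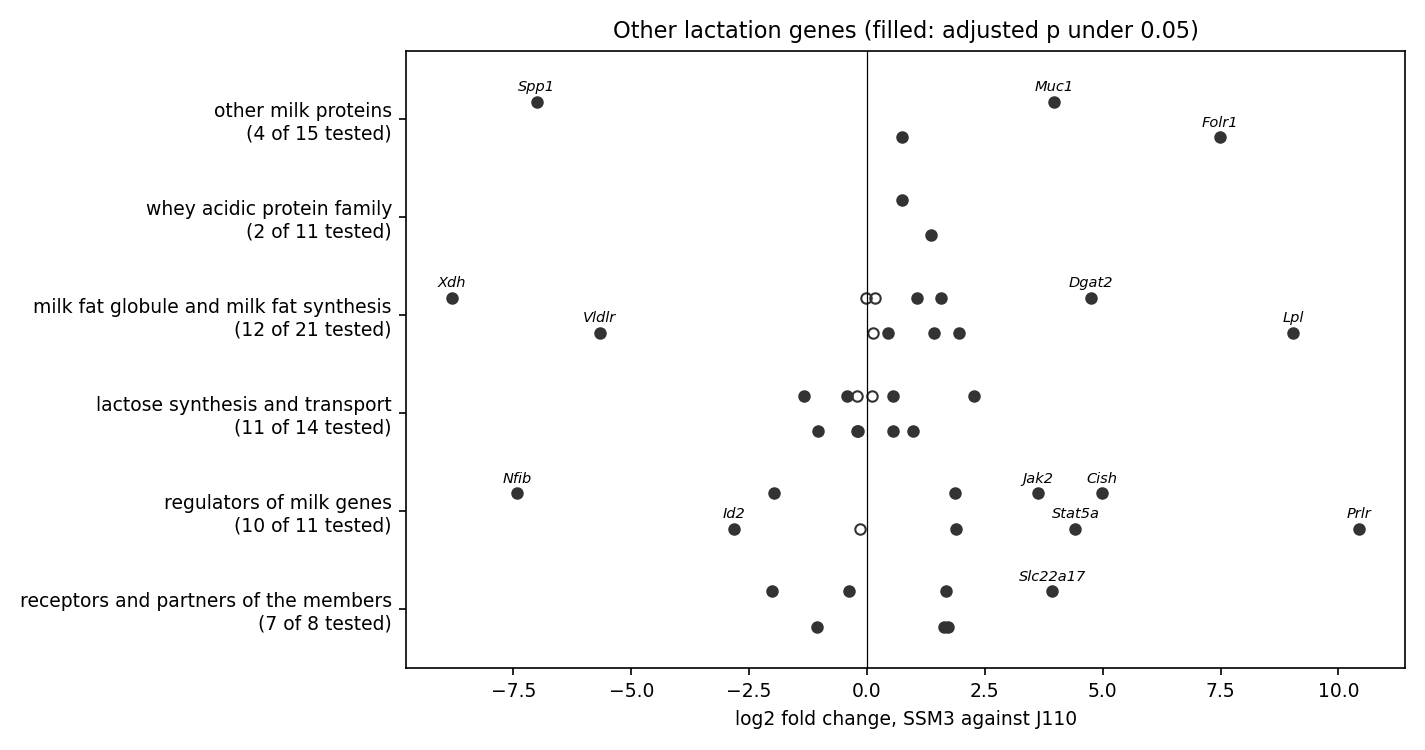
Log2 fold change, SSM3 against J110 (horizontal axis), of the tested genes of 6 lists of lactation genes (rows, with the number tested). Points are genes, set at alternating heights to keep them apart and filled where the adjusted p was below 0.05, and those beyond 2.5 in size are named. Xdh, Spp1, Nfib and Vldlr lie at the far left and Prlr, Lpl and Folr1 at the far right. Values of Xdh, Lpl and Folr1, with no count in 1 line, depend on the prior count.

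Markers of the labelled tissue and of other cells were read beside these genes. Krt8 and Krt18, keratins of luminal epithelium, were abundant in both lines. Of the 8 epithelial markers tested, 7 were higher in SSM3, a direction called for 38.6% of genes tested. Krt18 was lower there, at 1430 ± 18.1 CPM in J110 against 970 ± 37.3 in SSM3 (SD, n = 3 each). Its log2 fold change was -0.56 (SE 0.06, edgeR adjusted p = 6.61e-07). Krt19, another luminal keratin, had 74, 59 and 143 counts in J110 against 33815, 32985 and 38701 in SSM3 (log2 fold change 8.65, SE 0.21, edgeR adjusted p = 1.77e-15). Epcam had 2, 1 and 7 counts in J110 against 2376, 2404 and 2412 in SSM3, so this defining epithelial marker was nearly absent in J110. The part of these epithelial markers in the differences of the members was not tested. Adipocyte markers, which matter for Plin2, summed to between 5.98 and 6.92 CPM in J110 and between 0 and 0.849 CPM in SSM3. Nearly all of this was Fabp4, with 31, 34 and 29 counts in J110, and the defining markers Adipoq, Lep, Cfd and Plin1 were at 0 in every library. Leukocyte markers, which matter for Lcn2, summed to between 36.3 and 42.9 CPM in J110 and between 37.2 and 42.3 CPM in SSM3. Of the 10, 3 were tested, and S100a8 was higher in SSM3, Cd68 lower, and Csf1r did not pass (log2 fold change -0.01, standard error 0.17, adjusted p = 0.955 from edgeR). S100a9, the partner of S100a8, did not pass the filter and had 14, 8 and 15 counts in J110 and none in SSM3, at least 3.90-fold lower in SSM3. Lyz2, the lysozyme gene of myeloid cells, had 6, 10 and 0 counts in J110 and none in SSM3. Ptprc, which defines leukocytes, had 2 counts in all. The part of these markers in the Lcn2 result was not tested. Hepatocyte markers, which matter for Trf, summed to between 0 and 1.67 CPM in J110 and between 353 and 446 CPM in SSM3. Fgb made up most of this, with 1568, 2088 and 2218 counts in SSM3, and Apoa1 had 18, 12 and 13, while Alb and Ttr, the defining plasma protein genes of liver, were at 0 in SSM3. The part of these markers in the Trf result was not tested. Endothelial and erythroid markers stayed at or below 2.37 CPM in sum, and fibroblast markers at or below 1.98 CPM.

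The genes with the most similar pattern were found for the 4 members tested, by the root mean square difference in log2 CPM over the 6 libraries after centring each gene on its mean, among 9063 genes whose mean was 10 CPM or more. For Plin2 they were Ppil4, at a difference of 0.0173, and Baz1a, at 0.0257. For Mfge8 they were 1500011B03Rik, at 0.0271, and Rnf44, at 0.0351. For Csn3 they were Ccng2 and Pqlc3, at 0.166 and 0.245. For Wfdc18, where counts were low and replicates more scattered, the nearest genes Llgl2 and Prkd1 lay farther off, at 0.378 and 0.401.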

How the data were processed

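RNA from cultured J110 and SSM3 cells, 3 biological replicates each, was sequenced as 75 base single end reads from 3′ ends. The authors trimmed reads with cutadapt 2.1, mapped them to mm10 with HISAT2 2.0.4 and counted them per gene with featureCounts (Subread 2.0.0). They deposited raw counts of 52636 genes, without normalisation. The strand setting and the annotation release are not given in the sources used here. Of the identifiers, 52489 (99.7%) matched GENCODE M21 of GRCm38, which gave symbols and coordinates.

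All 6 libraries were used, grouped by their labels. Low genes were removed by filterByExpr, library totals were TMM-scaled, and the lines were compared by edgeR's quasi-likelihood test (version 4.0.16, R 4.3.3) with Benjamini-Hochberg adjustment over 12284 genes and a threshold of 0.05. The standard error is the log2 fold change divided by the root of F. In a test on simulated counts of these 12284 genes, all 100 genes changed 4-fold and 87 of 100 changed 2-fold were recovered, with 9 false calls among 196. The simulation gave every gene the same dispersion and changed only 200 genes, so these rates need not hold for the data, where most genes were called. Log2 CPM used a prior count of 2.

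The members and the other lists were chosen with earlier results of these data known. Named genes are the members, in each list the 3 most abundant genes tested and the 2 with the largest changes called in each direction, genes counted as being at the floor, and the 2 nearest genes by pattern. Genes named after their values were seen are Plin3, Plin4, Lpin1, Dgat1, Gpat4, Pnpla2, Stat5a, Stat5b, Cebpb, Esr1, Cdh1, B4galt1, Nr3c1, Pthlh, Wfdc1, S100a9, Lyz2, Csn1s2a, Prr27, Odam and Gm20425. Genes of the other line, used to measure low counts, had at least 200 CPM in that line and at most 3 counts in 2 or more libraries of this line, a rule also set after seeing the data. Alternatives covered scaling, filters, DESeq2 1.42.0, limma-voom (limma 3.58.1), glmTreat, removal of the 3 genes of a ribosomal RNA locus, a block for the replicate number, and omission of single libraries. One feature of the SSM3 line is not reported here.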

Additional observations from a re-analysis of the deposited data

How the results depend on the processing

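Csn3, Wfdc18, Mfge8 and Plin2 kept their direction and their call under every alternative in which they were tested. The log2 fold change ranged from -3.62 to -2.71 for Csn3, from 1.88 to 3.11 for Wfdc18, from 1.57 to 1.79 for Mfge8 and from -1.22 to -0.99 for Plin2. Library size only moved the median of all genes from -0.01 to 0.16 on the log2 scale. Counts of members depended on the filter. With at least 1 count in any library, 5 were higher in SSM3 and 2 lower, beside 5434 and 5689 of all 22592 genes tested. At least 10 counts in every library gave 1 higher and 1 lower, since Csn3 and Wfdc18 were then not tested. With the latter filter 3679 of 9686 genes were higher and 3609 lower. Leaving out each library in turn gave from 2 to 4 members higher in SSM3, and 2 lower each time, where from 4581 to 4698 of the 12454 to 12564 genes tested were higher. Lcn2 and Trf both passed the filter without each J110 library in turn, Trf alone without SSM3 replicate 1, Lcn2 alone without SSM3 replicate 2, and neither without SSM3 replicate 3. Without J110 replicate 3 and SSM3 replicate 2, added after seeing the data, 3 were higher and 2 lower, beside 4416 and 4465 of all 12395 genes tested. A test for changes above 2-fold called 4272 genes in place of 9566, and called the same number of members in each direction. Over 53 of the tested genes named (all but Lpin1, Esr1, Cdh1, Ncoa3 and the nearest genes by pattern), 867 of 883 alternatives kept the call or its absence and 16 lost a call, and no called gene changed direction. Plin3, Plin4, Csf1r and Cebpb, which were not called, changed sign under at least 1 alternative.

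The replicate number as a block gave 9481 genes called and left 2 members higher and 2 lower. Deviations of same-numbered libraries correlated at 0.0118, 0.0155 and 0.0268, too weak to pair the libraries, although every library correlated best with its own number. With at most 10 counts in place of 3 as the floor, 4 members were at the floor in both lines, Csn2 included. At these depths, a gene with no count in a single library could still have a level up to about 0.6 CPM there.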
